A study of Mus musculus with 18 samples.

Results

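The enzymes and helper proteins that hydroxylate, fold and trim procollagen were followed in CD34+ and CD34- stromal cell clones of mouse bone marrow. A list of 10 genes was taken: the collagen prolyl 4-hydroxylase subunits P4ha1, P4ha2 and P4hb, the lysyl hydroxylases Plod1, Plod2 and Plod3, the chaperones Serpinh1 and Fkbp10, the procollagen C-proteinase Bmp1 and its enhancer Pcolce. A probe set was a member where the platform annotation gave it a single symbol equal to one of these names. That rule found 23 probe sets for 9 of the 10 genes, out of 36701 probe sets and 15964 genes, with 12 on the MG_U74Av2 chip, 5 on MG_U74Bv2 and 6 on MG_U74Cv2. No probe set carried Fkbp10 as its single symbol, and this gene was not analysed here.

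The cells came from adult mouse bone marrow, were isolated as colonies of single cells and were cultured in DMEM with 10% fetal bovine serum, and their purity was judged by flow cytometry for CD34. The groups were 3 RNAs labelled CD34+ and 3 labelled CD34-, and each RNA was read on 1 array of each of the 3 chip types, 18 arrays in all. No gene had been altered and no agent was given per the labels, which state neither strain nor age beyond adult. All CD34+ arrays carry 1 sample identifier in the labels and all CD34- arrays another, and nothing says that replicate RNAs of one group derive from separate clones or cultures. P-values below therefore cover the spread of these 6 RNAs alone, possibly a technical spread, and effects of clone and of CD34 status cannot be told apart.

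Fibrillar procollagen is hydroxylated on proline and lysine in the endoplasmic reticulum, where hydroxyproline stabilises the triple helix and hydroxylysine serves sugar attachment and later crosslinks. The folded trimer is accompanied by collagen-specific chaperones, and outside the cell proteinases remove its propeptides before fibrils assemble. Marrow stromal cells are fibroblast-like producers of such matrix.

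The signals given below are quantile-normalized intensities, in arbitrary units, and the log2 differences are CD34+ minus CD34- after an offset was added, so that changes of dim probe sets are understated. A probe set was called at a limma p under 0.05 after Benjamini-Hochberg adjustment over all tested probe sets of its chip type. Deposited signals of the groups lay on different scales, the CD34- arrays below the CD34+ arrays by factors of 14.1 to 120, and this was removed by the normalization. Cd34 itself, read with 160358_at, stood at 938, 787 and 919 in the CD34+ RNAs and at 172, 59.9 and 128 in the CD34- RNAs, as the labels say. Of 13 stromal markers 10 were tested, while Thy1 and Lepr fell under the filter on dim probe sets and Vim, usually abundant in fibroblasts, read 47.0 to 289. Some tested stromal markers moved with the group, in both directions. Lower in CD34+ clones were 4 of 10: Pdgfra at a log2 difference of -1.16, Cxcl12 at -1.06, Itgb1 at -0.43 and Eng at -0.42. Higher were 2, S100a4 at 0.86 and Cd44 at 0.50, and the median of the 10 was -0.37. All 10 were read on MG_U74Av2, where 6.69% of all tested probe sets were called lower and 8.21% higher. At other tested probe sets, Cxcl12 (-1.62 and -1.27) and Itgb1 (-0.43) were also called lower on MG_U74Av2. Not called, with overlap, were Cxcl12 on MG_U74Bv2 (0.09), Pdgfra on MG_U74Av2 (-0.46) and Itgb1 on MG_U74Cv2 (-0.54). Eng (-0.76) and Cd44 (0.35 and 0.34) on MG_U74Bv2 were not called either, without overlap. The summed signal of 22 stromal marker probe sets on MG_U74Av2 was 62525 to 68053 in CD34+ and 63297 to 70582 in CD34- RNAs, with overlap, and that of 5 on MG_U74Bv2 was 17574 to 19002 against 13528 to 17305, without overlap. All 3 probe sets of Ptprc, the pan-leukocyte marker, read 2.03 to 28.9, below the offset of 51.5 of MG_U74Av2. Other blood markers were brighter: 6 of the 18 listed genes passed the filter, and none of them was called. Among these 6, Cd14 read 1509 to 2492 over both groups and Csf1r, at its brighter probe set, 611 to 786. Whether blood cells were present was not tested. The summed signal of 22 blood marker probe sets on MG_U74Av2 was 4429 to 5325 in CD34+ and 4215 to 5567 in CD34- RNAs. That of 11 endothelial marker probe sets was 531 to 705 against 826 to 918, without overlap, but only 1 of these 11 probe sets passed the filter. Only 2 of the 8 endothelial genes were tested. The single endothelial probe sets on the other chip types overlapped, at 270 to 470 against 318 to 612 on MG_U74Bv2 and 84.9 to 356 against 78.3 to 106 on MG_U74Cv2. RNA quality also moved with the group on MG_U74Av2: the Gapdh 3' to 5' signal ratio was 0.700 to 0.771 in CD34+ and 0.802 to 0.832 in CD34- RNAs. The part of the stromal and endothelial signals and of these RNA measures in the results below was not tested. In bulk RNA, fewer cells of a type and less RNA per cell cannot be told apart.

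In CD34+ clones 4 of the 10 genes were lower at 1 probe set each, namely Pcolce, Serpinh1, Bmp1 and P4ha1, and no member was higher by the test. All 4 called probe sets lie on MG_U74Av2, where 12 member probe sets were tested, against 6.69% of all 7634 tested probe sets of that chip called lower and 8.21% called higher. The other 18 tested member probe sets were not called, and 1 of Plod1 was removed by the filter on dim values. The CD34+ and CD34- signals did not overlap at 6 member probe sets that were lower and 1 that was higher in CD34+ RNAs on MG_U74Av2, where 15.7% and 18.8% of all tested probe sets did the same. On this chip 10 of 12 member differences were negative, against 48.7% of all tested probe sets, with a median of -0.25 against 0.01. On MG_U74Bv2 4 of 5 were negative with a median of -0.43, and on MG_U74Cv2 3 of 5 with a median of -0.01, against 49.7% and 50.3% of all tested probe sets.

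**Figure D1:**
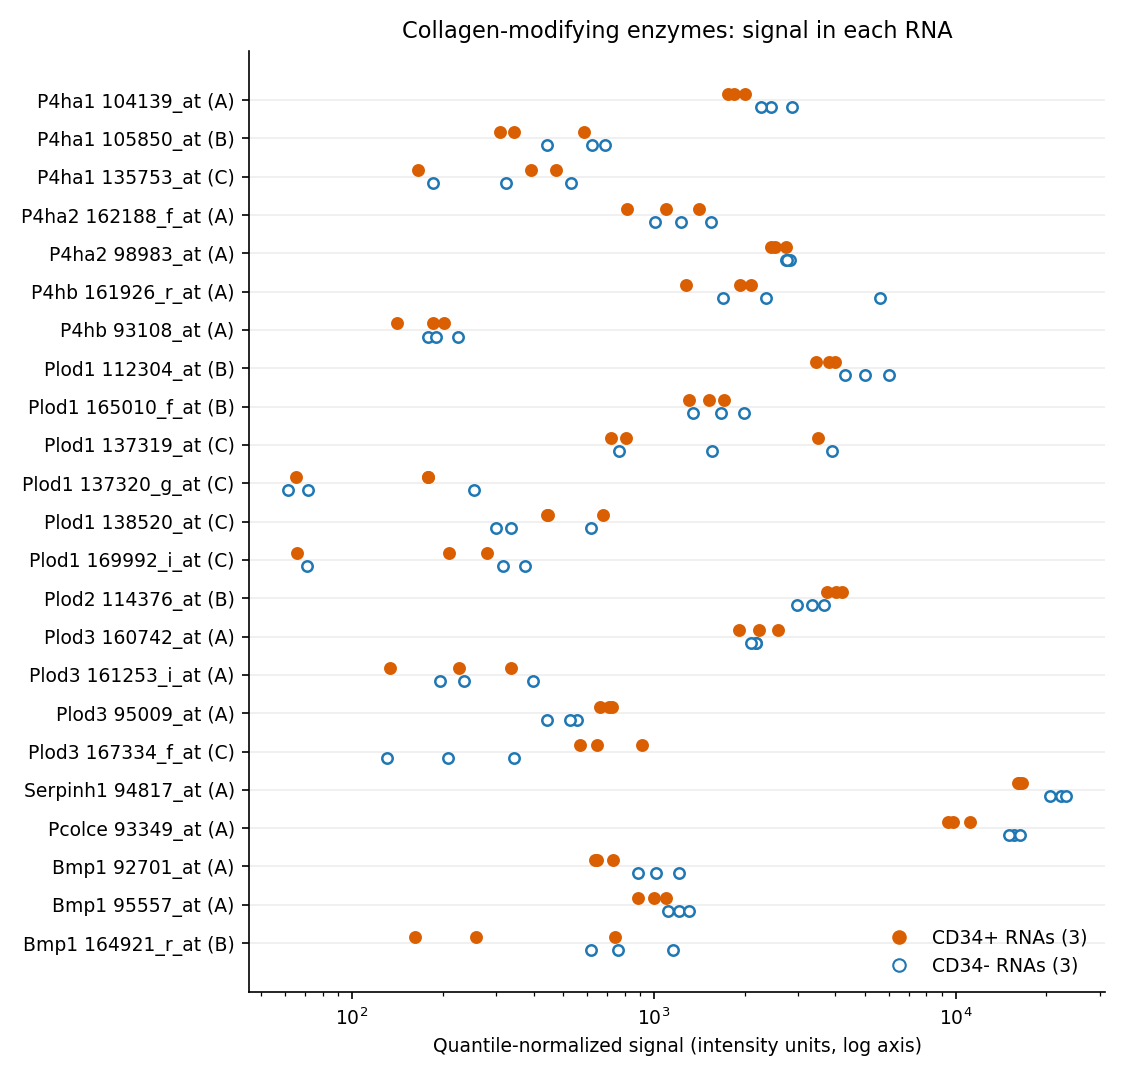
Quantile-normalized signal (intensity units, log axis) of each member probe set in each of the 6 RNAs, 1 point an RNA, with CD34+ and CD34- RNAs in separate colours. Pcolce at 9463 to 11134 in CD34+ against 15053 to 16376 in CD34- RNAs and Serpinh1 at 16092 to 16558 against 20561 to 23190 stand fully apart, while P4hb overlaps.

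RefSeq promoter windows (GRCm38.p6) were at hand for 7 of the 10 genes, and not for Plod2, Bmp1 and Fkbp10. The stretches upstream of the start are shown for Serpinh1, Pcolce and P4ha1, which were lower in CD34+ clones, and for Plod3, none of whose probe sets was called, as a contrast. They are chr7:99353240-99353489 on the minus strand, chr5:137611523-137611654 on the minus strand, chr10:59323046-59323196 on the plus strand and chr5:136986769-136987018 on the plus strand, each written 5' to 3' on the gene's strand and reaching up to the annotated start. Bases inside the gene were left out, and those of Pcolce and P4ha1 are shorter because the annotated gene begins upstream of the start that the window was set on. Capitals mark matches on either strand to the letters GGGCGG of the GC box, to CCAAT as bound by nuclear factor Y, to the core of the hypoxia response element, ACGTG, to the pair of heat shock units GAANNTTC or to the TATA box written TATAAA.
Serpinh1: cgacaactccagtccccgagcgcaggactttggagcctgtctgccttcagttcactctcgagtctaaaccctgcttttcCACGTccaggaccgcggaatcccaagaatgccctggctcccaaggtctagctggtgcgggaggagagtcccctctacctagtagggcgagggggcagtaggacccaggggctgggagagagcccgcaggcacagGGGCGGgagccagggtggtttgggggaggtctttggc
Pcolce: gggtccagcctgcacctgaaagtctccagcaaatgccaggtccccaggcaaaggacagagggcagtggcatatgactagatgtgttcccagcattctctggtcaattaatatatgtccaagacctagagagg
P4ha1: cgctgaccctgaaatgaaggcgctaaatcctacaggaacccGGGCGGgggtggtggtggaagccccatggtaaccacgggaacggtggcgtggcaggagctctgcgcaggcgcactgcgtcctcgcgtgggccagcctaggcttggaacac
Plod3: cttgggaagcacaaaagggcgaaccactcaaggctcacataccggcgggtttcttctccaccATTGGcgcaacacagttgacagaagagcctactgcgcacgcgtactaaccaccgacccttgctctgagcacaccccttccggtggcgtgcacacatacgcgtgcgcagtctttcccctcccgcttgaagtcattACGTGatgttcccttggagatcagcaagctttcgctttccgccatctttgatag
Serpinh1 held 1 GC box and 1 ACGTG, P4ha1 held 1 GC box, Plod3 held 1 CCAAT and 1 ACGTG, and the Pcolce stretch held none of the 5 motifs. Plod3 does not stand for the other uncalled members with a window, which are not shown. P4ha2 held 2 GC boxes, P4hb 3 and Plod1 2, so a GC box was not particular to the genes that were lower. Among all promoters cut to 250 bases, 32.9% held a GC box, 34.5% CCAAT, 16.6% ACGTG, 6.78% GAANNTTC and 13% TATAAA. For stretches of 151 bases, the length of P4ha1, a GC box was found in 16.6%. For 132 bases, the length of Pcolce, the shares were 14% for the GC box, 17.8% for CCAAT, 8.14% for ACGTG, 3.51% for GAANNTTC and 6.81% for TATAAA. No motif was common to the 3 genes that were lower, which the empty short stretch of Pcolce alone decides. A match describes letters in these windows and is not a binding site.

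The collagen prolyl 4-hydroxylase is a tetramer of catalytic alpha subunits, P4ha1 or P4ha2, and the beta subunit P4hb, which is protein disulfide isomerase. P4ha1, the main catalytic subunit in most cells, was lower in CD34+ clones at 104139_at. Its signal was 1839, 2000 and 1768 in the CD34+ RNAs and 2450, 2259 and 2881 in the CD34- RNAs. Every CD34+ value lay below every CD34- value. The means were 1869 ± 119 and 2530 ± 319 (SD, n = 3), a log2 difference of -0.42 (SE 0.12, 95% interval -0.69 to -0.16, limma adjusted p = 0.0422), or 25.3% lower. This call was near the threshold: it held without CD34- RNA 2 (adjusted p = 0.0353) and was lost without any other single RNA (0.0812 to 0.124), with the direction unchanged.

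The other P4ha1 probe sets lie on other chips and gave no call. On MG_U74Bv2, where 5 member probe sets were tested and 0.401% of all tested probe sets were called lower and 0.685% higher, 105850_at read 344, 310 and 586 against 687, 442 and 624 (log2 -0.43, interval -1.06 to 0.20, adjusted p = 0.479). Groups overlapped there, and the estimate moved between -0.66 without CD34+ RNA 3 and -0.29 without CD34+ RNA 2. On MG_U74Cv2, 135753_at spread from 166 to 474 in CD34+ and from 185 to 531 in CD34- RNAs (log2 -0.01, adjusted p = 0.996), and the sign was kept in 14 of 19 alternatives.

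P4ha2, the alternative catalytic subunit, read 2734, 2526 and 2451 at 98983_at in CD34+ RNAs and 2734, 2837 and 2771 in CD34- RNAs. The groups did not overlap, though CD34+ RNA 1 and CD34- RNA 1 differed by less than 1 unit, and the log2 difference of -0.11 (interval -0.32 to 0.10) was not called (adjusted p = 0.459). A second P4ha2 probe set, 162188_f_at, overlapped between the groups (log2 -0.20, adjusted p = 0.575). Within an RNA, the log2 difference of P4ha1 was more negative than that of P4ha2 by 0.31, with no overlap of the groups. The exact permutation p of 0.1 is the smallest that 3 against 3 RNAs allow, and 0.167 after adjustment over the 5 pairs of members compared.

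P4hb, which also serves as a general disulfide isomerase, was read with 161926_r_at at 1934, 1274 and 2102 in CD34+ RNAs and at 2361, 5605 and 1691 in CD34- RNAs. CD34- RNA 2 stood well above the other 5, and the groups overlapped. The log2 difference was -0.69 (interval -1.54 to 0.16, adjusted p = 0.261) with that RNA and -0.20 without it. The second probe set, 93108_at, was dim at 141 to 225 and gave -0.14 (adjusted p = 0.722).

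Lysyl hydroxylases act on the same chains, Plod2 mainly in the telopeptides that form crosslinks, Plod1 in the helix, while Plod3 also transfers sugars to hydroxylysine. None of the 10 tested probe sets of these genes was called. Plod1 at 112304_at read 3450, 3795 and 3992 in CD34+ RNAs and 5026, 4313 and 5995 in CD34- RNAs. These groups did not overlap, and the log2 difference was -0.43 (interval -0.75 to -0.10), with an unadjusted p of 0.0157 and an adjusted p of 0.183 in limma. All CD34+ arrays of MG_U74Bv2 were run on the same fluidics station, with CD34- RNA 1 as its only CD34- array, so group and station are largely confounded there. Within that station the log2 difference was -0.42. On MG_U74Bv2 10.2% of all tested probe sets were lower without overlap.

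The other probe sets of Plod1 gave no call, and none of the 4 tested ones held its sign across the alternatives. On MG_U74Bv2, 165010_f_at read 1306 to 1713 in CD34+ and 1353 to 1994 in CD34- RNAs (log2 -0.13, adjusted p = 0.783). On MG_U74Cv2, where 0.0535% of all tested probe sets were called lower and 0.0401% higher, 137319_at gave -0.37, 138520_at gave 0.30 and 169992_i_at gave -0.27, each with an interval that covers 0. With the fluidics station as a block, 165010_f_at turned to 0.14 and 138520_at to -0.23, while 137319_at moved to -1.52. Leaving out 1 RNA turned 137319_at to 0.21 (without CD34- RNA 1) and 169992_i_at to 0.08 (without CD34+ RNA 1). At 137319_at single RNAs ranged from 722 to 3500 in CD34+ and from 766 to 3892 in CD34- RNAs, so the spread within a group exceeded the difference between them. The probe set removed by the filter, 137320_g_at, read 65.2 to 179 and 61.5 to 255.

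Plod2, at its single probe set 114376_at, read 4020, 4217 and 3757 in CD34+ RNAs and 2978, 3346 and 3675 in CD34- RNAs. Here the CD34+ values were the higher ones, without overlap, as at 12.8% of all tested probe sets of MG_U74Bv2. The log2 difference of 0.26 (interval -0.03 to 0.54) was not called (limma adjusted p = 0.351). Plod1 at 112304_at and Plod2 thus lay on opposite sides of 0 on the same arrays. Their within-RNA difference shifted by -0.69 between the groups without overlap (exact permutation p = 0.1, the smallest possible, 0.167 adjusted over 5 pairs).

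Plod3 was the member with the highest estimates in CD34+ clones, though no probe set was called. At 95009_at it read 727, 712 and 664 in CD34+ and 558, 444 and 529 in CD34- RNAs (log2 0.43, interval 0.11 to 0.74, adjusted p = 0.0707). At 167334_f_at on MG_U74Cv2 it read 572, 912 and 646 against 131, 208 and 345 (log2 1.34, interval 0.51 to 2.17, adjusted p = 0.352). Neither pair of ranges overlapped, and on MG_U74Cv2 7.41% of all tested probe sets were higher and 6.71% lower without overlap. The remaining Plod3 probe sets overlapped: 160742_at read 1922 to 2576 against 2096 to 2188 (log2 0.05) and 161253_i_at 134 to 336 against 196 to 398 (log2 -0.22). Neither sign was stable, since without CD34+ RNA 3 they became -0.05 and 0.05, and 161253_i_at became 0.03 without CD34- RNA 2.

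**Figure D2:**
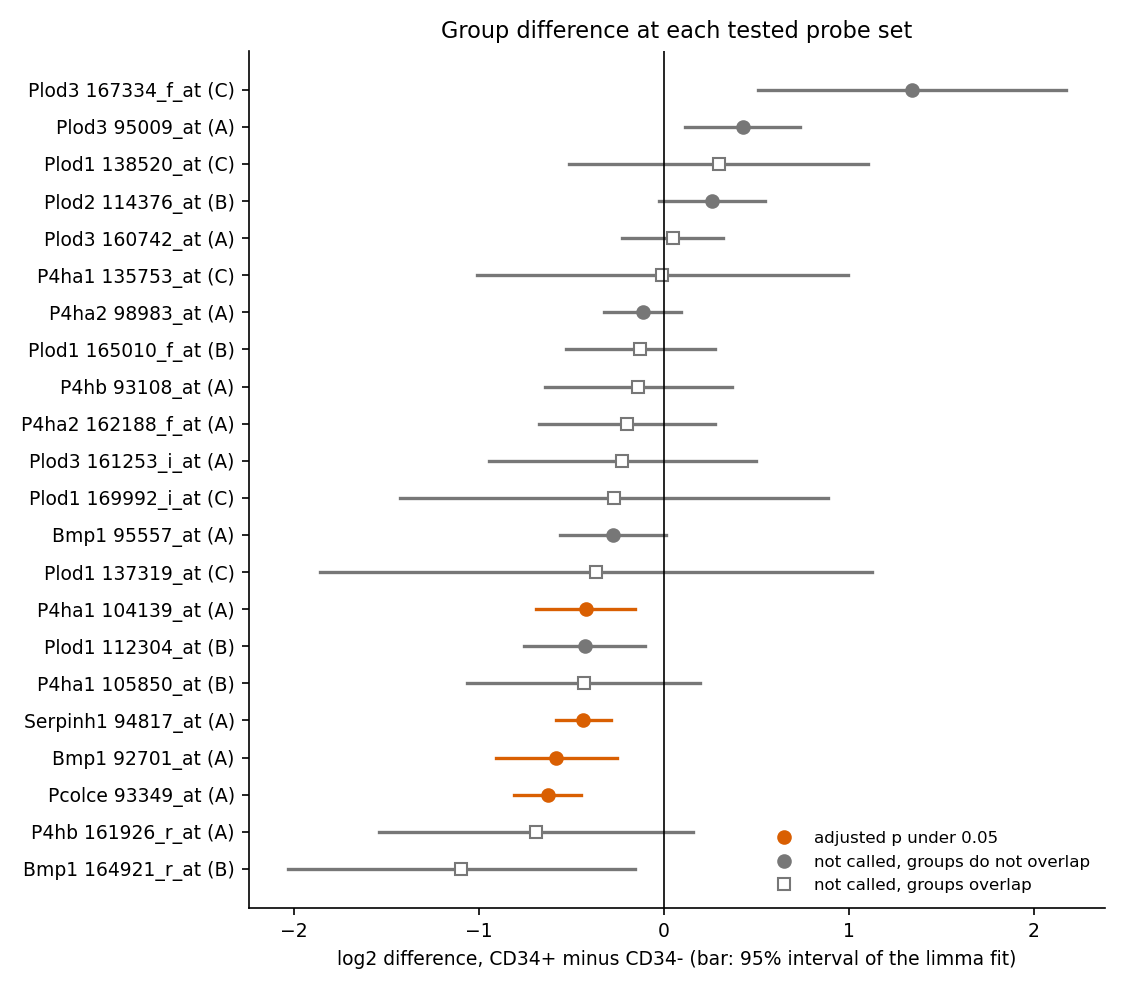
Log2 difference (CD34+ minus CD34-, x axis) of the 22 tested member probe sets, with the 95% interval of the limma fit as a bar called probe sets in a separate colour and overlapping groups as open squares. The 4 called ones, Pcolce, Bmp1, Serpinh1 and P4ha1, lie at -0.63 to -0.42, and Plod3 167334_f_at lies farthest to the right at 1.34.

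Serpinh1, the chaperone HSP47 that binds the folded procollagen helix, was lower in CD34+ clones. It read 16092, 16202 and 16558 in the CD34+ RNAs and 22399, 20561 and 23190 in the CD34- RNAs. The CD34+ values lay close together and all below the CD34- values. Means were 16284 ± 244 and 22050 ± 1349 (SD, n = 3), and the log2 difference at 94817_at was -0.43 (SE 0.07, 95% interval -0.58 to -0.29, limma adjusted p = 0.00288), or 26.0% lower. The call held without any single RNA, and was lost when the arrays were scaled to a common median in place of quantile normalization (log2 -0.42, adjusted p = 0.0588).

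Against P4hb at 161926_r_at, which works in the same compartment on many proteins, the difference of Serpinh1 could not be separated: the within-RNA shift was -0.26 for P4hb minus Serpinh1 (exact permutation p = 0.9). It turned to 0.28 without CD34- RNA 2, the RNA in which P4hb was high.

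Pcolce binds the C-propeptide of procollagen and speeds its removal by Bmp1, and it had the largest fall among the called members. At 93349_at it read 9832, 9463 and 11134 in CD34+ RNAs and 15574, 15053 and 16376 in CD34- RNAs. No value of one group reached the other. Means were 10143 ± 878 and 15668 ± 667 (SD, n = 3), a log2 difference of -0.63 (SE 0.08, 95% interval -0.81 to -0.45, limma adjusted p = 0.00131), or 35.3% lower. Pcolce was called under each of the 19 alternative settings and leave-outs, with adjusted p between 0.00104 and 0.0216.

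Bmp1, the metalloproteinase that cleaves the C-propeptide and also activates lysyl oxidase, was lower at 1 of 3 probe sets. At 92701_at it read 640, 650 and 733 in CD34+ RNAs and 1018, 1216 and 887 in CD34- RNAs, with means of 674 ± 51.4 and 1040 ± 165 (SD, n = 3). The groups did not overlap, and the log2 difference was -0.58 (SE 0.14, 95% interval -0.91 to -0.25, limma adjusted p = 0.0272), or 33.1% lower. The call held without CD34- RNA 3 (adjusted p = 0.0163) and was lost without any other single RNA (0.0516 to 0.0944), with the same direction.

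The other Bmp1 probe sets had negative differences that were not called. At 95557_at the signals were 885, 1000 and 1100 against 1114, 1214 and 1310, without overlap (log2 -0.28, interval -0.56 to 0.01, adjusted p = 0.188). At 164921_r_at on MG_U74Bv2 they were 742, 161 and 257 against 764, 1161 and 620 (log2 -1.09, interval -2.03 to -0.16, adjusted p = 0.228), and CD34+ RNA 1 lay among the CD34- RNAs. Within an RNA, Bmp1 at 95557_at was shifted by 0.35 relative to Pcolce, that is, its difference was smaller (exact permutation p = 0.1, the smallest possible, 0.167 adjusted over 5 pairs). This pair used the brighter Bmp1 probe set, and the called one, 92701_at, with -0.58, lay close to the -0.63 of Pcolce.

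The arrays of MG_U74Av2 were run on 2 fluidics stations, 1 with a CD34+ and a CD34- RNA and 1 with 2 of each, as the array files state. In these 2 stations the log2 differences were -0.73 and -0.57 for Pcolce, -0.53 and -0.39 for Serpinh1, -0.44 and -0.65 for Bmp1 at 92701_at and -0.63 and -0.32 for P4ha1 at 104139_at. All 4 were negative in both stations, but within the station of 4 arrays P4ha1 was not called (limma adjusted p = 0.164). On MG_U74Bv2 and MG_U74Cv2 the station that held both groups had only 1 CD34- RNA.

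**Figure D3:**
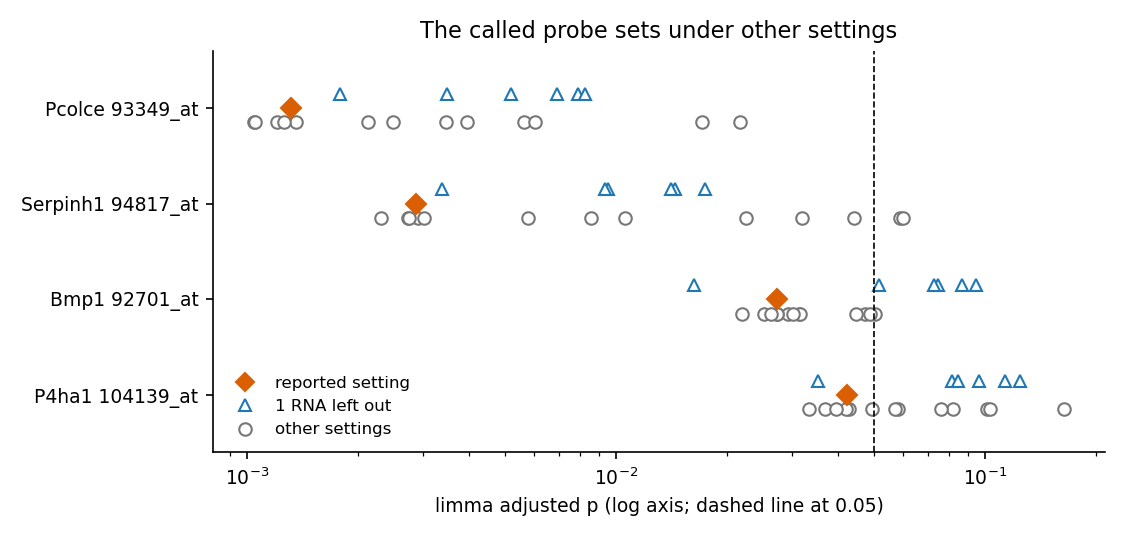
Limma adjusted p (x axis, log scale, dashed line at 0.05) of the 4 called probe sets under the reported setting and 19 alternatives, with leave-outs of 1 RNA marked apart from other settings. Pcolce stays left of the line in all, Serpinh1 in 17, Bmp1 in 13 and P4ha1 in 7.

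The genes that act beside these enzymes were taken from 4 further lists, with 1 probe set a gene, and the list of members was treated alike. Counted so, 3 of 9 tested members were lower and 0 higher, against 3.51% of all 11969 genes called lower and 4.39% higher, and their median log2 difference was -0.42 against 0.02 over all genes. The share over all genes pools chip types with few calls: 7 of the 9 members but 5748 of the 11969 genes were read on MG_U74Av2. On that chip 6.69% of all tested probe sets were called lower and 8.21% higher. Bmp1 is represented there by its brighter probe set, 95557_at, which was not called. The median of the members was -0.29 when the probe sets of a gene were averaged.

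The fibrillar collagen chains, the substrates, had 4 of 8 tested genes lower and 0 higher, with a median of -0.43. Of the 8 genes 6 were read on MG_U74Av2, where 6.69% of all tested probe sets were called lower and 8.21% higher. Col1a1 and Col1a2, the chains of type I collagen, differed by -1.10 and -0.61, Col3a1 of type III collagen by -1.81 and Col5a1 of type V collagen by -0.96, each with a limma adjusted p of 0.000978 or below. Col1a2 read 24570, 22951 and 23456 in CD34+ RNAs and 36608, 35450 and 36608 in CD34- RNAs. A second Col1a2 probe set, 161156_r_at, overlapped and was not called (log2 -0.34, adjusted p = 0.343), and a second one of Col1a1, 103709_at, gave -1.43. Col5a2 was not called at -0.12 (adjusted p = 0.262).

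Whether the enzymes moved as far as their substrates was asked within each RNA of MG_U74Av2, for 3 enzymes against 3 chains. Serpinh1 was less negative than Col1a1 by 0.66 and than Col3a1 by 1.37, P4ha1 by 0.67 and 1.39, and Pcolce by 0.47 and 1.18. In these 6 pairs the groups did not overlap (exact permutation p = 0.1, the smallest possible, 0.129 adjusted over 9 pairs). Against Col1a2 at 101130_at the shifts were 0.18 for Serpinh1 without overlap, 0.19 for P4ha1 with overlap (exact permutation p = 0.3) and -0.01 for Pcolce with overlap (p = 1). At the second Col1a2 probe set, with its difference of -0.34, the chain itself was less negative than each of the 3 enzymes, so the order against Col1a2 depends on the probe set. No pair could reach an adjusted p under 0.05 in this design.

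Further genes of collagen biosynthesis and turnover showed 7 of 25 tested genes lower and 0 higher, with a median of -0.20. Of the 25 genes 18 were read on MG_U74Av2, with its shares of 6.69% lower and 8.21% higher over all tested probe sets. Beside the prolyl hydroxylases, Crtap, a subunit of the prolyl 3-hydroxylase complex, was lower at 4866 ± 194 against 5947 ± 244 (SD, n = 3, log2 -0.29, limma adjusted p = 0.0429). Its partners were not called: Ppib, a prolyl isomerase, gave -0.33 (adjusted p = 0.0635) and P3h1, the catalytic subunit, -0.16 on MG_U74Bv2 (adjusted p = 0.578). Fkbp7, another prolyl isomerase of the endoplasmic reticulum, was lower by -1.01 (adjusted p = 0.000974).

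Downstream of the lysyl hydroxylases, Lox, the oxidase that starts crosslinks and a substrate of Bmp1, read 3789, 3594 and 3616 in CD34+ RNAs and 5544, 5786 and 7378 in CD34- RNAs. Its log2 difference was -0.75 (limma adjusted p = 0.0031). Its relatives Loxl1 and Loxl3 were not called, with -0.06 (adjusted p = 0.852) and 0.51 (adjusted p = 0.253). Beside Pcolce, its paralog Pcolce2 gave -0.11 with overlap (adjusted p = 0.841), and neither Tll1, a relative of Bmp1, nor Adamts2, an N-proteinase, was tested.

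The remaining genes of this list that were lower were Mmp14, a membrane collagenase, at -1.02, Mrc2, a receptor for collagen uptake, at -0.84, Creb3l1, a transcription factor of secretory cells that acts on collagen genes, at -0.55, and Sparc, a collagen-binding matrix protein, at -0.52, each with a limma adjusted p of 0.0232 or below. Mmp14 and Mrc2 take part in the breakdown and uptake of collagen, not in its making.

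General folding factors of the endoplasmic reticulum differed in direction among themselves, with 3 of 21 tested genes higher, 2 lower and a median of 0.12. These calls are 14.3% and 9.52% of the list. Of the 21 genes 19 were read on MG_U74Av2, where 8.21% of all tested probe sets were called higher and 6.69% lower. Only 6 of the 21 differences were negative, against 48.7% of all tested probe sets of that chip. Without overlap of the groups 8 genes were higher and 3 lower, against 18.8% and 15.7% of all tested probe sets there. The chaperone Hsp90b1 was higher at 13640 ± 675 against 10467 ± 754 (SD, n = 3, log2 0.38, limma adjusted p = 0.0114), as were Pdia6, a disulfide isomerase, at 0.60 (adjusted p = 0.00946) and Creld2, a stress-induced factor, at 0.57 (adjusted p = 0.0195). The disulfide isomerase family members Pdia5 and Txndc5 were lower at -0.92 (adjusted p = 0.00212) and -0.37 (adjusted p = 0.0418). Hspa5, the main chaperone of this compartment, gave -0.10 with overlapping groups (adjusted p = 0.724).

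**Figure D4:**
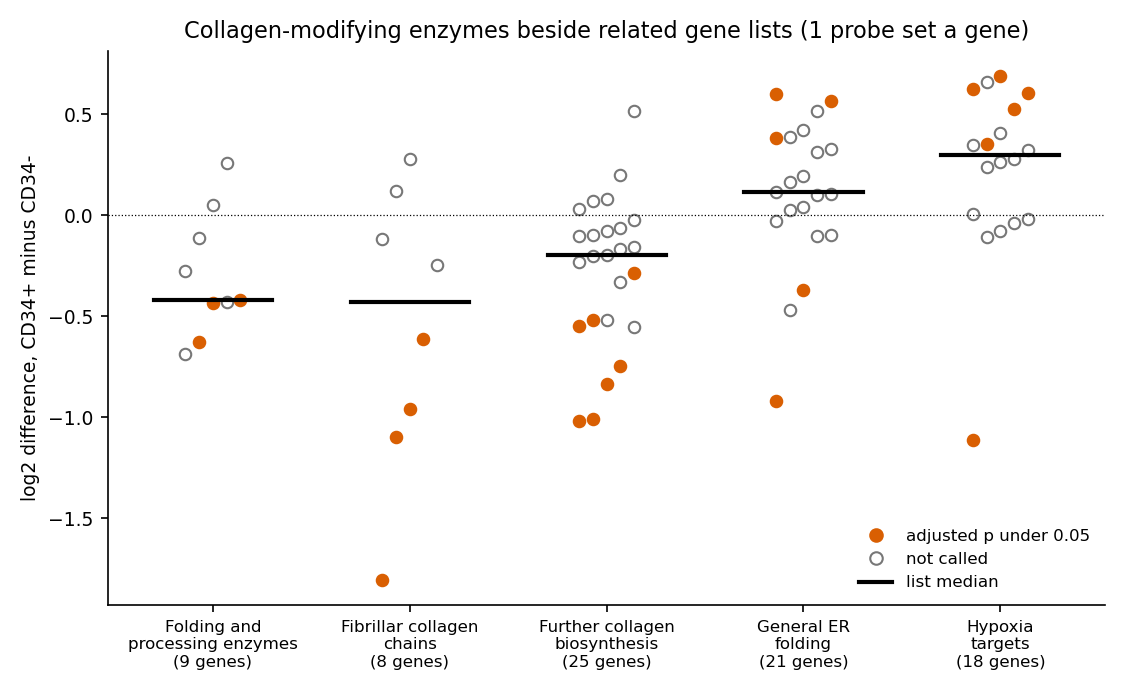
Log2 difference (CD34+ minus CD34-, y axis) of each tested gene, 1 point a gene at 1 probe set, for the members and 4 related lists, with called genes filled and the list median as a line. Medians are -0.42 for the members, -0.43 for fibrillar collagen chains, -0.20 for further collagen biosynthesis, 0.12 for general folding factors and 0.30 for hypoxia targets.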

How the data were processed

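Total RNA was labelled with biotin and hybridised to Affymetrix arrays, per the labels' protocols. The authors deposited 1 linear intensity for each probe set and array, from MAS5 per the submitters' processing notes. Which version and options they ran is not given in the sources used here. Array run files gave the fluidics station alone. Per chip type, the 6 arrays were quantile normalized, the 20th percentile was added (51.5, 106 and 97.9) and log2 was taken. Tests left out 66 controls per chip type and all probe sets whose deposited intensity did not exceed their own array's 40th percentile on at least 3 arrays. Each chip type was fitted with limma (lmFit, eBayes with intensity trend), with group as the only term, two-sided, on 7634, 7737 and 7481 probe sets, and the fit was tested on simulated data. Versions were 4.3.3 for R, 3.58.1 for limma and 1.5.0 for statmod. Pairs were compared by two-sided exact permutation over the 6 RNAs. Arrays have no read depth, and their number limits the precision.

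Groups came from sample titles. For lists, a gene was read by its brightest tested probe set, from MG_U74Av2 if it had one there, else MG_U74Bv2, else MG_U74Cv2. Named were all members, Cd34, up to 6 called genes per list with the largest differences, and genes set beside a member by role. Members, lists and pairs were chosen with earlier results of these data known. Hspa5, Col5a2 and second probe sets of Col1a1 and Col1a2 were named after their values were seen. Alternatives covered scaling, offset, filter, variance trend, blocks and leaving out each RNA. No 2 arrays of a chip type were identical. Probe sets of a gene may detect different transcripts. Names came from GEO's platform annotation and promoter sequences from RefSeq (GRCm38.p6), with Entrez identifiers or symbols as the link.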

Additional observations from a re-analysis of the deposited data

How the results depend on the processing

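Across the 19 alternatives, Pcolce, Serpinh1, Bmp1 (92701_at) and P4ha1 (104139_at) kept their negative sign, and no alternative called another member probe set. Serpinh1 lost its call with arrays scaled to a common median (adjusted p = 0.0588) or deposited log2 values centred on each median (0.0598). The 4 members lower on MG_U74Av2 became 2 with a common median, 2 with centred log2 values and 2 to 3 without single RNAs: 2 without any CD34+ RNA or CD34- RNA 1, and 3 without CD34- RNA 2 or 3. P4ha1 also lost its call with no filter (0.0579), no variance trend (0.0816), a common median (0.101), centred log2 values (0.103), the fluidics station as a block (0.0569) and within the station of 4 arrays (log2 -0.32, 0.164). With single RNAs left out, the P4hb minus Serpinh1 shift ranged from -0.65 without CD34- RNA 3 to 0.28, reversed, without CD34- RNA 2. Within the station of 4 arrays the log2 differences were -1.13 for P4hb at 161926_r_at and -0.39 for Serpinh1.

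All probe sets called numbered 1138 on MG_U74Av2 and 634 to 1230 without single RNAs. The 84 on MG_U74Bv2 became 37 with no filter, 16 with no variance trend, 1 with the station as a block, 3 within the station of 4 arrays and 2 to 98 without single RNAs. The 7 on MG_U74Cv2 (661 at an unadjusted p under 0.05 in limma) became 2 with cyclic loess, 2 with the offset at the 5th percentile, 0 with no filter (899 unadjusted), 0 with no variance trend (595), 0 with the station as a block (471), 1 within the station and 0 to 1 without single RNAs (497 to 772). The causes were not tested. On MG_U74Cv2 the split of higher to lower calls was 3 to 4, and 3 to 6, 2 to 4, 2 to 6 and 0 to 2 under the common median, trimmed mean, centred log2 and cyclic loess. On that chip and on MG_U74Bv2 the calls are thus too few to read the absence of a member call as no difference.

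Replicate numbers do not pair the RNAs: same-numbered RNAs correlated at -0.0493 to 0.0701 in their deviations from the group means. With a replicate block, 2 members were lower on MG_U74Av2 (Bmp1 at an adjusted p of 0.0501 and P4ha1 at 0.0758 lost their calls), and 956, 57 and 0 probe sets were called on the 3 chip types (657 unadjusted on MG_U74Cv2).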

Other observations

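P4ha1 and Plod2 are known targets of the hypoxia-inducible factors, and other targets were counted beside them. Of 18 tested targets 5 were higher and 1 lower in CD34+ clones, with a median log2 difference of 0.30, against 4.39% and 3.51% of all genes. Of these targets 14 were read on MG_U74Av2, where 8.21% of all tested probe sets were called higher and 6.69% lower. Ldha, which reduces pyruvate to lactate, read 29260, 28534 and 30578 in CD34+ RNAs and 17402, 20046 and 17402 in CD34- RNAs (log2 0.69, limma adjusted p = 0.000432). The glycolytic enzymes Pgk1 and Aldoa differed by 0.63 (adjusted p = 0.00105) and 0.35 (adjusted p = 0.00774), the glucose transporter Slc2a1 by 0.53 (adjusted p = 0.0484) and Pdk1, which restrains pyruvate oxidation, by 0.61 (adjusted p = 0.0484). Ndrg1, a stress-induced gene, was lower by -1.11 (adjusted p = 0.000132). P4ha1 at 104139_at lay on the lower side at -0.42, and Plod2 on the higher side at 0.26 without a call.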
